A study of Mus musculus with 24 samples.

Results

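A set of 4058 genes changed in the same direction in terminal end buds (TEBs) in all 6 sorted epithelial populations of the pubertal mouse mammary gland, out of 18109 genes tested. TEBs lead ductal growth in puberty, and the ducts behind them are the comparison tissue. A gene belongs to the set if it passed edgeR's quasi-likelihood test of 12 TEB against 12 duct libraries, blocked by population, at an adjusted p under 0.05, and if its mean CPM (a count scaled by the size of its library, with TMM-scaled sizes) lay on the same side in each population. Of these, 2239 genes were higher in TEBs (12.4% of all genes tested) and 1819 were lower (10.0%). The direction in each population comes from the same libraries as the test, so it describes the call and adds no independent support to it.

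The 24 libraries form 12 groups of 2, a duct group and a TEB group for each of 6 populations of lineage-negative, EpCAM-positive cells. Mice of the first model carry Elf5-rtTA-IRES-GFP, in which Elf5, a transcription factor of luminal progenitors, drives GFP. They gave basal cells (high CD29), luminal GFP-positive cells and luminal GFP-negative cells (both low CD29). Mice of the second model carry PR-cre and Rosa26-LSL-eYFP, in which cells that have expressed the progesterone receptor, and their progeny, are marked by YFP. They gave basal cells, luminal YFP-positive cells and luminal YFP-negative cells. Every library therefore comes from a reporter mouse, and no library comes from a mouse without these alleles. The labels give neither age in weeks nor strain, nor whether animals were pooled. Whether both libraries of a group come from separate animals is not stated, so the p-values measure the spread between these libraries, which may be technical. The gates of one model, tissue and replicate number may also share a preparation. With the gates of each of the 4 presumed preparations averaged on the log scale to 1 sample per tissue and tested with limma, 2011 of the 2239 higher and 1595 of the 1819 lower genes stayed in the set.

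Total counts per library ran from 31264622 to 52495208, and 3 counts, the limit that a count of 0 allows, corresponded to 0.057 to 0.096 CPM. The gates matched their markers. Itgb1, which encodes CD29, averaged 1522 ± 61.3 CPM in basal ducts (SD, n = 4 libraries) and 550 ± 38.1 in luminal ducts (n = 8), and the smooth muscle actin gene Acta2 in luminal ducts was at 0.106% of its basal level. Libraries of luminal GFP-negative ducts, replicate 2, and of luminal YFP-negative TEBs, replicate 2, held transcripts of skin keratinocytes. Their summed levels of 15 marker genes were 2840 and 592 CPM, against 20.4 to 135 in the other luminal libraries. Without both, the set had 2072 higher and 1681 lower genes, and 1919 and 1471 of the original members remained. Markers of immune cells (20 genes, 18 of them tested and 6 called lower) summed to 2.38 to 10.7 CPM in TEB and 6.1 to 38.4 CPM in duct libraries. Markers of fibroblasts (14 tested, 6 called higher) summed to 17.5 to 1530 CPM in TEBs and 24.9 to 1000 CPM in ducts. In bulk samples such as these, fewer cells of a type and less RNA per cell cannot be told apart.

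During puberty the ductal tree grows by cell division in TEBs, whose outer cap cells give rise to basal cells and whose inner body cells give rise to luminal cells. Ovarian steroids, growth hormone, IGF1 and EGF receptor ligands drive this growth. The ducts left behind divide less and take on the features of a mature bilayer, in which contractile basal cells surround luminal cells that sense hormones or can be driven to make milk.

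The test of TEBs against ducts called 3550 genes higher (19.6% of those tested) and 3524 lower (19.5%), 39.1% in all. Of the called genes, 63.1% of those higher and 51.6% of those lower moved the same way in all 6 populations. The remaining 3016 called genes did not. Of these, 1014 were called higher with 5 of the 6 populations higher, and 1230 were called lower with 1 population higher. A further 274 genes moved the same way in all 6 and were not called. Under a stricter reading, with both TEB libraries on one side of both duct libraries in each of the 6 populations, 1002 genes were higher (5.53%) and 568 lower (3.14%). At the edge of the set, the last gene inside it was Armc10 (log2 fold change 0.17, adjusted p = 0.0491) and the first outside was Slc35d2 (log2 fold change -0.39, adjusted p = 0.05017), both named for that position alone.

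**Figure D1:**
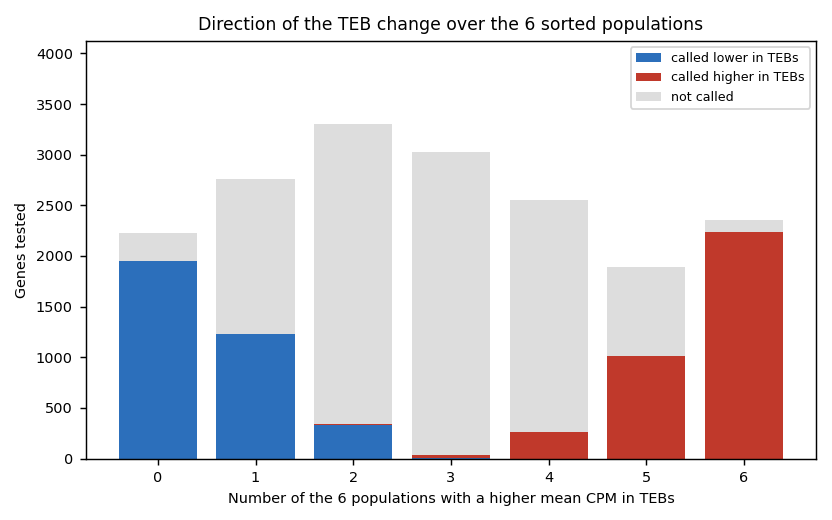
Bars give the number of genes tested (vertical axis) by the number of the 6 populations in which the mean CPM was higher in TEBs (horizontal axis). Blue marks genes called lower, red genes called higher and grey genes not called. The 2239 higher members fill most of the bar at 6. The bar at 0 holds the 1819 lower members, genes lower in all 6 that were not called, and genes at an equal level in at least 1 population.

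Most of the shared changes were small in at least 1 population. The median log2 fold change was 0.49 over the higher members and -0.65 over the lower members, against -0.04 over all genes tested. The smallest of a gene's 6 population changes (log2 ratio of mean CPM with a pseudocount of 0.5) had a median of 0.17 and 0.15 for higher and lower members, and was under 0.25 for 2675 of the 4058. By population, the median log2 ratio of the higher members ran from 0.32 in YFP-positive cells and 0.39 in GFP-negative cells to 0.68 in basal cells of the Elf5 model. The lower members followed the same order, from -0.35 and -0.44 to -0.77. The YFP-positive cells held the smallest change of 648 higher and 505 lower members, more than any other population. Tested separately, this population also had the fewest called genes (835 higher and 589 lower, against 3123 and 3476 in basal cells of the Elf5 model).

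A core of 180 genes was over 2-fold higher in every population, and 37 were over 2-fold lower. Of these, 157 and 14 had at least 5 CPM in every population, a filter added after the data were seen. In all 180, both TEB libraries lay above both duct libraries in each population, and the same held in the opposite direction for 32 of the 37. Over all genes tested the shares were 5.53% and 3.14%. The core was picked by the size of the change in these same libraries. This separation therefore adds no independent support to it, nor do the counts of unequal changes below. The TEB change differed in size among the 6 populations (edgeR's quasi-likelihood test of the interaction, adjusted p under 0.05) for 26.8% of all genes tested, 22.2% of the members, 4 of the 180 and 15 of the 37. Of the 180 genes, 68 belong to 4 lists of cell cycle genes with 109 members between them.

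Genes of cell division led the set. In the list for mitosis and the kinetochore, the protein complex that ties chromosomes to the spindle, all 37 genes tested were called higher and 36 were higher in all 6 populations (median log2 fold change 2.32). Cdk1 (Entrez gene 12534, chromosome 10, 69335146 to 69352912 in GRCm38), the kinase that drives entry into mitosis, was at 66.3 to 111 CPM in TEBs (median 99.2) and 6.27 to 25.4 CPM in ducts (median 16.3). The 12 TEB libraries did not overlap with the 12 duct libraries, and the lowest duct values were those of basal and GFP-positive cells of Elf5 replicate 2. Cdk1 rose 5.96-fold (log2 fold change 2.58 ± 0.21 SE, adjusted p = 4.58e-08). Its change ran from 2.26 on the log2 scale in GFP-negative cells to 3.05 in basal cells of the Elf5 model, and the test of a difference among populations gave an adjusted p of 0.925.

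The other 11 genes with the largest smallest-population change were of the same kind. They were Knl1, Ndc80 and Nuf2 (kinetochore), Cenpi (centromere), Ncapg (condensin, which folds mitotic chromosomes), Plk1 (a mitotic kinase), Birc5 (survivin, of the chromosomal passenger complex), Stil (centriole duplication), Ccna2 (cyclin A2), Cep55 (the final cut between daughter cells) and E2f8 (an E2F repressor of late cell cycle). Their log2 fold changes lay between 2.28 (Cep55) and 2.60 (Knl1), with adjusted p from 5.75e-09 (Knl1) to 1.28e-06 (Cep55). In none of the 11 did TEB and duct libraries overlap, and the adjusted p for a difference among populations was 0.764 or above in each. The 11 were ranked by their change in these same libraries, so both statements describe the choice and add no support of their own. The share of all genes tested without such overlap was not counted. Mki67, the source of the Ki-67 proliferation antigen and chosen after its values were seen, was at 342 to 1221 CPM in TEBs (median 560) and 51.7 to 198 CPM in ducts (median 141). It rose 4.87-fold (log2 fold change 2.28 ± 0.23, adjusted p = 3.97e-07). Its highest TEB values, 1098 and 1221 CPM, were those of YFP-negative cells.

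Genes of DNA synthesis were higher too. All 34 DNA replication genes tested were called higher and 33 were higher in all 6 populations (median log2 fold change 1.45). Mcm5, a subunit of the replicative helicase, was at 85.3 to 205 CPM in TEBs (median 146) and 9.4 to 58.3 CPM in ducts (median 42.0). Without overlap between the tissues it rose by 1.96 ± 0.26 on the log2 scale (adjusted p = 9.29e-06). Cdc45 and Mcm10, which activate the helicase, and Rrm2, the ribonucleotide reductase subunit that supplies deoxynucleotides, rose by 2.25, 2.14 and 2.12. All 20 genes of DNA repair by recombination were higher in all 6 populations (median 1.66), among them Rad54b, a chromatin remodeller of recombination (2.05), the nuclease Exo1 (2.37) and Brca1 (2.10). Of 18 genes of chromatin assembly and repression, 17 were called higher and 16 were higher in all 6 populations. These included the histone chaperones Asf1b (2.29) and Chaf1a (1.74), Uhrf1, which carries DNA methylation through replication (2.33), and Lmnb1, the lamin B1 gene (1.76).

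Few cell cycle genes outside the chromatin list were called for a difference among populations in the size of the rise. With 2 libraries per group, the lack of a call does not show equal rises. The size of the TEB change differed among populations for 1 of 34 replication genes, 2 of 37 mitotic genes and 0 of 20 repair genes, against 26.8% of all genes tested. The chromatin list had 5 of 18. The summed level of the mitotic list ran from 2400 to 4970 CPM in TEBs and from 342 to 1200 CPM in ducts. By population its median log2 ratio was lowest in GFP-negative cells (1.60) and highest in YFP-negative cells (2.76). Pcna, the replication clamp, and Mad2l1, a spindle checkpoint protein, were the replication and mitosis genes that left the set, since each was higher in 5 of 6 populations. Pcna was at 100 to 172 CPM in TEBs and 51.8 to 139 CPM in ducts (log2 fold change 0.51 ± 0.11, adjusted p = 0.00107; adjusted p = 0.0754 within the PR-cre model alone). Mad2l1 rose by 1.48 ± 0.25 (adjusted p = 0.000109). In GFP-negative cells Mad2l1 was at 24.5 and 59.7 CPM in ducts and at 43.3 and 37.1 CPM in TEBs. The 59.7 CPM is from the library with keratinocyte transcripts, and the exception of Mad2l1 rests on it. The duct libraries of Elf5 replicate 2 were the lowest of their population for Cdk1, Mki67, Mcm5 and Ccna2 in all 3 gates. In GFP-positive ducts, for example, Mcm5 was at 58.3 CPM in replicate 1 and 9.4 CPM in replicate 2.

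**Figure D2:**
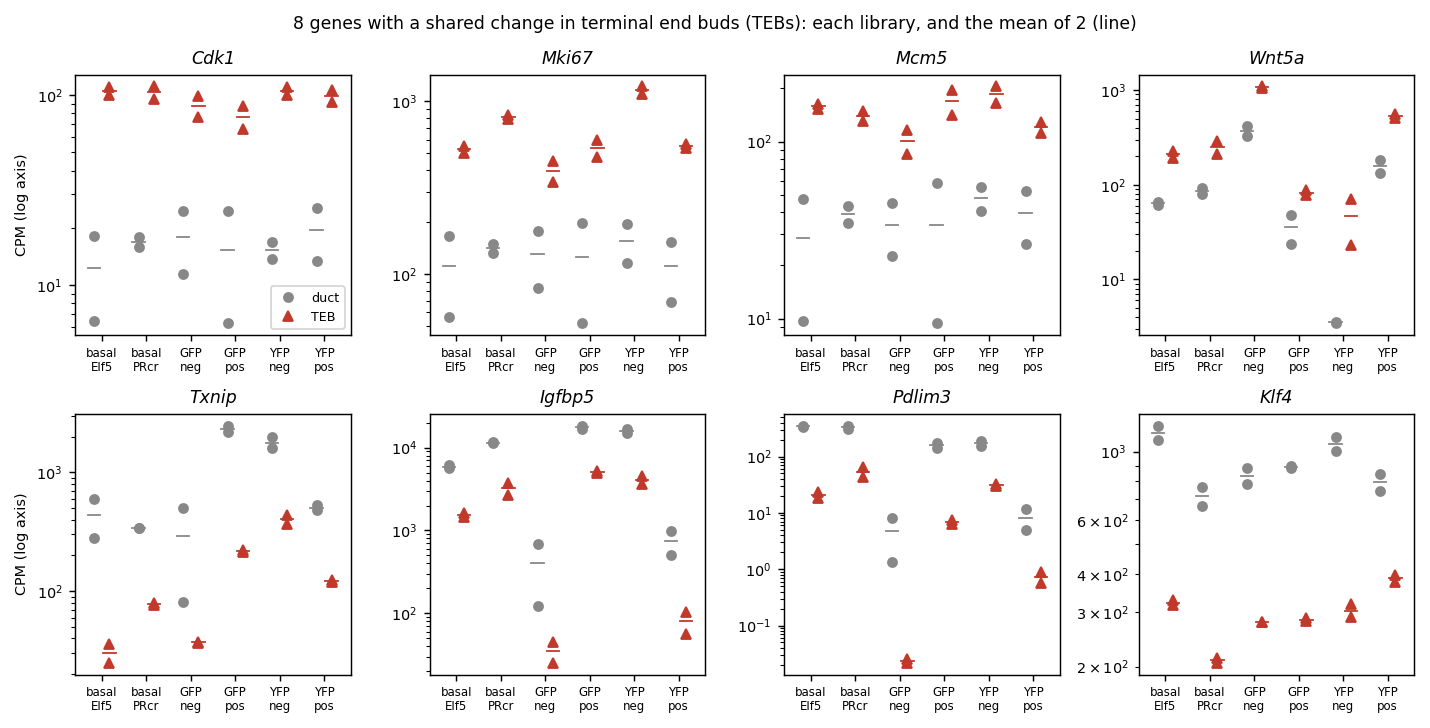
Each panel plots the CPM of 1 gene on a log axis in the 6 populations (horizontal axis), with grey circles for duct libraries, red triangles for TEB libraries and lines at the mean of 2 libraries. Cdk1, Mki67, Mcm5 and Wnt5a were higher and Txnip, Igfbp5, Pdlim3 and Klf4 lower in TEBs in every population, while the level of Wnt5a, Igfbp5 and Pdlim3 differed widely among populations.

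Promoter sequences are shown for cell cycle members because the genes moved together. RefSeq windows (GRCm38.p6) that end at the annotated start were found for 13236 of the 18109 genes tested, and the 250 bases before the start were searched on both strands for 4 motifs. These were CHR, a cell cycle element (TTTGAA or TTCGAA), the CCAAT box (CCAAT), the E2F element (TTCCCGC or TTGGCGC) and ISRE, the interferon-stimulated response element (GAAA, any 2 bases, GAAA). A CHR match was present in 11 of 30 windows of the mitotic list (36.7%) and in 13.0% of all windows, and CCAAT in 21 of 30 (70.0%) and 36.0%. E2F letters were present in 9 of 28 windows of the replication list (32.1%), 7 of 15 of the chromatin list (46.7%) and 9.35% of all windows. Among all higher members the shares were 14.9% for CHR, 41.5% for CCAAT and 15.1% for E2F, and among all lower members 11.9%, 35.7% and 7.46%. E2F letters were also in 6 of 25 windows of genes over 2-fold lower in every population, in 18.4% of windows of those over 2-fold higher, and in 23.8% of windows of the immediate early list. A match describes these letters and was not tested as a binding site. The stretches below are from the 4 mitotic members with the largest smallest-population change that hold CHR and CCAAT close together, and from the first 3 replication members, ranked the same way, that hold E2F letters. Each reads 5′ to 3′ on the strand of its gene, and capitals mark the motif on either strand.
Cdk1, CHR and CCAAT, chr10:69352966-69353004, minus strand: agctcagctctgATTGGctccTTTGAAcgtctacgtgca
Top2a, CHR and CCAAT, chr11:99024312-99024350, minus strand: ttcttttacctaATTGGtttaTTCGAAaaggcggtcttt
Bub1b, CHR and CCAAT, chr2:118598011-118598114, plus strand: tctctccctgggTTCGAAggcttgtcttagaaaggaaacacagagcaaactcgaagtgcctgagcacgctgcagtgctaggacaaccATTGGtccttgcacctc
Ube2c, CHR and CCAAT, chr2:164769860-164769917, plus strand: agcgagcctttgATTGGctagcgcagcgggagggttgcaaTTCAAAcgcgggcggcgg
Mcm5, E2F, chr8:75109333-75109378, plus strand: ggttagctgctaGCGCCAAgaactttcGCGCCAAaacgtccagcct
Rrm1, E2F, chr7:102441616-102441646, plus strand: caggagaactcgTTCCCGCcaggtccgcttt
Mcm6, E2F, chr1:128359796-128359826, minus strand: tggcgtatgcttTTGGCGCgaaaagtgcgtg
In Cdk1 and Top2a the pair lies within 39 bases, and Mcm5 holds the E2F letters at a pair of places. Top2a (topoisomerase), Bub1b (spindle checkpoint) and Ube2c (a ubiquitin-conjugating enzyme of mitotic exit) rose by 2.30, 2.41 and 2.58 on the log2 scale. Rrm1 (the large ribonucleotide reductase subunit) and Mcm6 (helicase) rose by 1.48 and 1.55. The 4 mitotic genes and Rrm1 showed no overlap between TEB and duct libraries, whereas the ranges for Mcm6 overlapped, at 174 to 443 CPM and 17.1 to 208 CPM.

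Brakes of the cell cycle moved in both directions. Of 18 genes of cell cycle exit and CDK inhibition, 10 were called lower and 4 higher, and 6 and 3 did so in all 6 populations. Tob1, an antiproliferative protein, was at 59.8 to 194 CPM in TEBs (median 113) and 155 to 826 CPM in ducts (median 288) and fell by 1.55 on the log2 scale (adjusted p = 9.72e-07). Gadd45g, a stress sensor, fell by 1.51 and Rb1, the retinoblastoma gene, fell by 1.21. The size of the change was unequal among populations for 15 of the 18. For Rb1 it ran from 0.30 on the log2 scale in basal cells of the PR-cre model to 3.06 in GFP-positive cells.

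Of 15 BCL2 family genes, 3 were higher (20.0%) and 4 lower (26.7%) in all 6 populations, against 12.4% and 10.0% of all genes tested. Bak1 and Bax, which open the mitochondrial outer membrane, rose by 0.82 and 0.53 (adjusted p = 1.91e-08 and 6.26e-05). Mcl1 and Bcl2, which oppose them, fell by 0.76 and 0.87 (adjusted p = 1.41e-07 and 0.00917). Mcl1 libraries ran from 246 to 783 CPM in TEBs and from 340 to 1440 CPM in ducts, so the tissues overlapped across populations although they were apart within each of the 6. The call for Bcl2 was lost within the PR-cre model alone (adjusted p = 0.108). These named genes do not stand for the whole family. Outside the set, Bmf was called lower (-0.66, adjusted p = 0.00201) and Bid higher (0.39, adjusted p = 0.03). Bik (-0.58), Bcl2l1 (-0.07) and Bad (-0.04) were not called. Among 15 p53 targets, 3 were higher and 1 lower in all 6, shares of 20.0% and 6.67%, within 2 genes of those of all genes tested. The lower gene was Fas, a death receptor, at 0.765 to 6.14 CPM in TEBs and 2.04 to 36.1 CPM in ducts, which fell by 1.99 (adjusted p = 7.19e-07).

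Outside the cell cycle, 3 genes over 2-fold higher in every population were picked after their values were seen. Wnt5a (Entrez gene 22418, chromosome 14, 28504543 to 28527448), a secreted Wnt ligand that signals mainly without beta-catenin, was at 23.0 to 1096 CPM in TEBs (median 219) and 3.43 to 420 CPM in ducts (median 72.5). The tissues overlapped across populations, since GFP-negative ducts (328 and 420 CPM) were above most TEB libraries, and both TEB libraries were above both duct libraries within each population. Wnt5a rose 3.65-fold (1.87 ± 0.24, adjusted p = 5.91e-06). Its rise ran from 1.19 in GFP-positive cells to 3.57 in YFP-negative cells, and differed among populations (adjusted p = 0.0462). Psat1, an enzyme of serine synthesis, was at 38.4 to 302 CPM in TEBs and 14.5 to 102 CPM in ducts and rose 3.81-fold (1.93 ± 0.17, adjusted p = 1.04e-07). Padi3, a peptidylarginine deiminase, rose 6.49-fold (2.70 ± 0.21, adjusted p = 2.09e-08), and its rise differed among populations (adjusted p = 0.013). It was at 183 and 147 CPM in basal TEBs of the Elf5 model and at 2.02 and 1.13 CPM in YFP-negative TEBs. In YFP-negative ducts Padi3 was at 0.108 and 0.0323 CPM, near the limit of 3 counts.

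The 5 higher members with the largest fitted change were less even. H19, an imprinted non-coding RNA, was at 0.712 to 94.7 CPM in TEBs (median 9.28) and 0 to 17.0 CPM in ducts (median 4.15). Its libraries overlapped, but the 2 tissues were apart within each population, from 7.24 and 7.53 against 3.91 and 4.48 CPM in basal cells of the PR-cre model to 77.7 and 94.7 against 6.72 and 17.0 CPM in YFP-positive cells. It rose by 3.02 ± 0.68 (adjusted p = 0.00152), less in basal than in luminal cells (adjusted p of the difference 0.00934). Pcsk6, a proprotein convertase that activates TGF-beta family ligands, was at 14.1 to 466 CPM in TEBs (median 42.0) and 2.37 to 105 CPM in ducts (median 5.37). It rose by 2.96 ± 0.35 (adjusted p = 2e-06), from 1.17 in GFP-negative cells to 5.16 in basal cells of the PR-cre model. Edil3, an integrin ligand of the matrix, rose by 2.99 ± 0.35 and was at 21.1 and 17.2 CPM in GFP-negative TEBs and at 24.5 and 23.7 CPM in basal TEBs of the Elf5 model. Sh2d5, an adaptor protein, rose by 2.80 ± 0.31 and averaged 32.0 ± 18.2 CPM in basal TEBs (SD, n = 4) and 1.58 ± 1.24 in luminal TEBs (n = 8). Edil3 in YFP-positive cells was at 0.044 and 0.346 CPM in TEBs and at 0 and 0.0498 CPM in ducts, near the limit of 3 counts. Oas2, an interferon-induced enzyme, is described with its list.

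Interferon-stimulated genes were higher in TEBs but uneven among populations. Of 23 genes tested, 18 were called higher and none lower, but 10 were higher in all 6 populations, and the size of the change differed among populations for 18 of the 23. The median log2 ratio was 2.58 in GFP-positive and 2.21 in GFP-negative cells, 1.46 and 0.80 in YFP-positive and YFP-negative cells, 1.07 in basal cells of the Elf5 model and -0.03 in basal cells of the PR-cre model. Within the Elf5 model alone the median fitted change of the list was 2.35, and within the PR-cre model 0.70. Rsad2 (viperin, an antiviral enzyme) was at 1.73 to 84.3 CPM in TEBs (median 15.5) and 0.243 to 12.5 CPM in ducts (median 2.63). It was higher in both TEB libraries of each population and rose by 2.58 ± 0.26 (adjusted p = 2.81e-07). Oas1a and Oas2, which sense double-stranded RNA, and Ifi44 rose by 2.56, 2.79 and 2.17. Reads of Oas1a may be shared with its near-identical neighbours, so its level is uncertain.

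Interferon promoters are shown because the list moved in part together and its motif could be searched. ISRE letters were present in 9 of the 16 windows of the list (56.2%), 2.68% of all windows and 2.96% of windows of the higher members. The 4 stretches are from the members with the largest smallest-population change that hold them.
Rsad2, ISRE, chr12:26456551-26456584, minus strand: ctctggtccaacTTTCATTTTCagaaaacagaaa
Oas1a, ISRE, chr5:120907526-120907557, minus strand: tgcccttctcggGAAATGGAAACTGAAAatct
Bst2, ISRE, chr8:71537581-71537614, minus strand: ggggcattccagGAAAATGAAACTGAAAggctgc
Ifit1, ISRE, chr19:34640773-34640825, plus strand: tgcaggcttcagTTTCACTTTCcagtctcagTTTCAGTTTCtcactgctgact
In Oas1a and Bst2 overlapping matches join to a longer run of capitals, and Ifit1 holds separate matches. Bst2 (tetherin, which holds virus at the cell surface) was at 9.4 to 113 CPM in TEBs and 3.37 to 58.3 CPM in ducts and rose by 1.37 ± 0.21 (adjusted p = 3.78e-05). Ifit1, which binds viral RNA, rose by 2.16 ± 0.34 (adjusted p = 5.3e-05). In basal cells of the PR-cre model Ifit1 libraries overlapped, with 3.0 and 3.11 CPM in TEBs and 1.67 and 3.15 CPM in ducts.

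Sterol synthesis genes were higher in TEBs. Of 24 cholesterol genes, 20 were called higher, none lower, and 17 were higher in all 6 populations (median log2 fold change 0.71). Dhcr7, the last enzyme of cholesterol synthesis, was at 21.1 to 57.2 CPM in TEBs (median 39.5) and 5.99 to 33.6 CPM in ducts (median 17.0). It rose by 1.28 ± 0.13 (adjusted p = 2.87e-07), more in basal than in luminal cells (difference 0.88 on the log2 scale, adjusted p = 0.000889). Fdps and Idi1, of the isoprenoid steps, rose by 1.08 and 0.94, and Stard4, a sterol carrier, by 1.04 (for Stard4, adjusted p = 0.000518, and 0.114 within the Elf5 model alone). The CCAAT letters were in 14 of 16 windows of this list (87.5%, against 36.0% of all windows). The fatty acid list followed less closely, with 3 of 14 genes higher in all 6 populations, led by the desaturase Scd2 (1.08 ± 0.15).

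Biosynthesis and energy genes rose by small amounts. Of 21 nuclear genes of oxidative phosphorylation, 13 were called higher and 11 were higher in all 6 populations, with a median log2 fold change of 0.20. Uqcrc1, a subunit of complex III, was at 139 to 220 CPM in TEBs and 119 to 166 CPM in ducts and rose by 0.36 ± 0.05 (adjusted p = 2.79e-05). Atp5b, a subunit of ATP synthase, also rose by 0.36. Of 20 genes of ribosome biogenesis, 12 were called higher and 6 were higher in all 6. The pseudouridine synthase Dkc1 led them with 0.61 ± 0.10. Changes of this size depend on scaling. With DESeq2's size factors the median over all genes tested was -0.08, and with plain library sizes 0.11, against -0.04 with TMM. The share of calls that were higher in TEBs was 50.2% with TMM, 43.3% with DESeq2's size factors and 70.7% with plain library sizes. No member was called in the opposite direction under either.

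**Figure D3:**
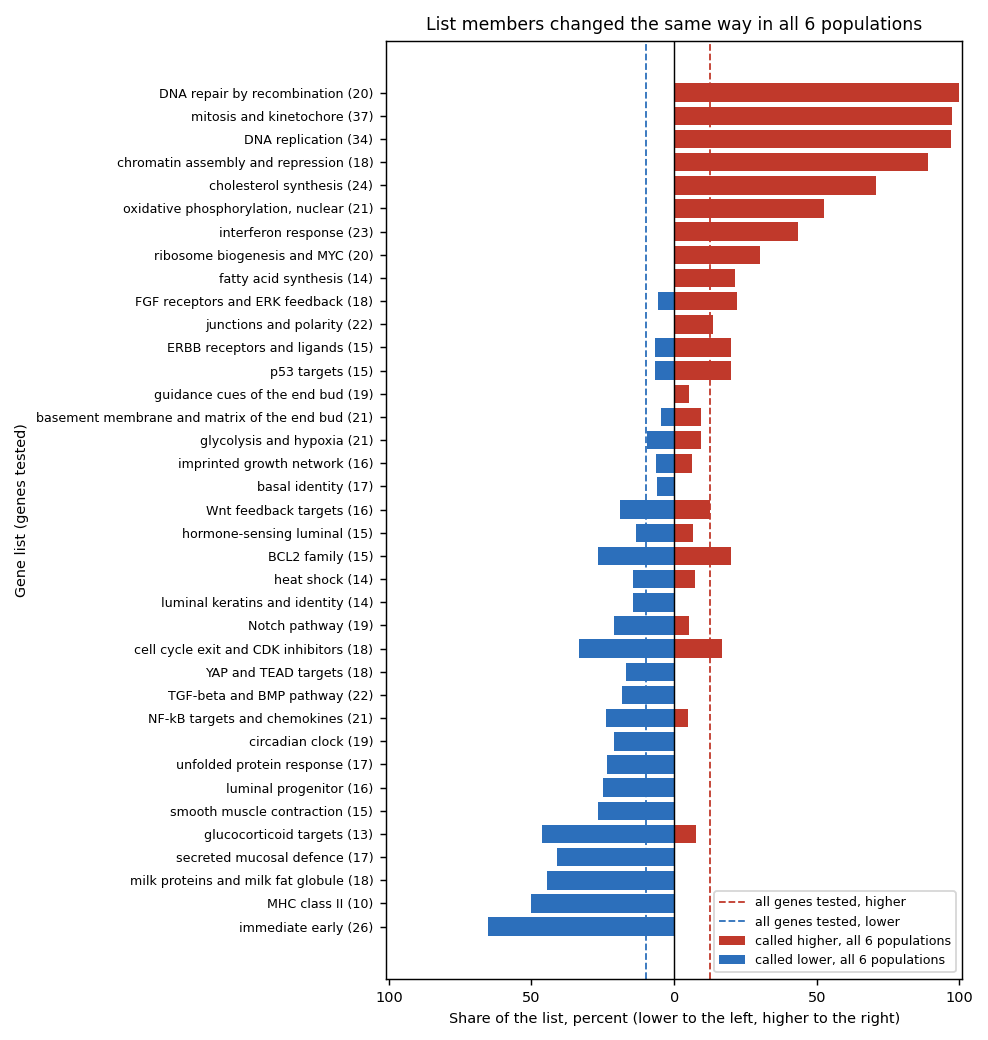
Bars give, for each gene list (vertical axis, with the number of genes tested), the percent of its genes called and higher (red, to the right) or lower (blue, to the left) in all 6 populations (horizontal axis). Dashed lines mark the same shares over all genes tested, 12.4% and 10.0%; the cell cycle lists lie farthest to the right and the immediate early list farthest to the left.

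Among the 12 lower members with the largest smallest-population change, Txnip (Entrez gene 56338, chromosome 3, 96557957 to 96561857), which restrains glucose uptake and thioredoxin, was the most abundant after Igfbp5 and Trf. It was at 25.0 to 438 CPM in TEBs (median 98.8) and 81.6 to 2467 CPM in ducts (median 513). The tissues overlapped across populations and were apart within each of them. Txnip was 6.76-fold lower (log2 fold change -2.76 ± 0.26, adjusted p = 2.1e-07), and its change lay between 2.05 and 3.84 on the log2 scale in size in the 6 populations (adjusted p for a difference 0.271). Arrdc4, an arrestin relative of Txnip that was chosen after its values were seen, was at 10.0 to 104 CPM in TEBs and 42.1 to 356 CPM in ducts and fell by 1.75 ± 0.11 (adjusted p = 2.31e-09).

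Igfbp5 (Entrez gene 16011, chromosome 1, 72858065 to 72874865) binds insulin-like growth factors. It was at 25.4 to 5222 CPM in TEBs (median 2171) and 124 to 18364 CPM in ducts (median 8695). Its level was low in GFP-negative and YFP-positive cells and high elsewhere, and it averaged 8669 ± 3247 CPM in basal ducts (n = 4) and 8665 ± 8697 in luminal ducts (SD, n = 8). It was 5.14-fold lower in TEBs (-2.36 ± 0.27, adjusted p = 1.25e-06), with changes between 1.79 and 3.50 in size. Pdlim3 (Entrez gene 53318, chromosome 8, 45885487 to 45919635), a PDZ and LIM domain protein of actin filaments, had the largest smallest-population fall. It was at 0.0219 to 64.3 CPM in TEBs (median 12.8) and 1.37 to 353 CPM in ducts (median 163) and was 12.4-fold lower (-3.63 ± 0.35, adjusted p = 2.03e-07). Its mean over luminal ducts was 25.4% of the basal mean of 337 CPM, against 0.106% for Acta2. This mean joins unlike gates, with 172 and 144 CPM in GFP-positive and 187 and 155 CPM in YFP-negative ducts. In YFP-positive ducts Pdlim3 was at 11.5 and 4.95 CPM, and in GFP-negative ducts at 1.37 and 8.1 CPM. The part of basal RNA in the luminal values was not tested.

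Further genes over 2-fold lower in every population included C4b, a complement component (-2.96 ± 0.25, adjusted p = 6.2e-08), Itprid1, a protein with an ITPR-interacting domain (-2.98 ± 0.29), Ccn5, a matricellular protein (-2.88 ± 0.27), and Ptprz1, a receptor phosphatase (-3.31 ± 0.39; adjusted p for a difference among populations 0.0279). Clca3a2, a member of the calcium-activated chloride channel regulators, was at 12.2 to 675 CPM in TEBs and 327 to 2203 CPM in ducts (-2.48 ± 0.29, adjusted p = 1.58e-06), and its fall differed among populations (adjusted p = 0.0141). C4b and Clca3a2 have near-identical copies in the mouse genome that may share reads, so their levels are uncertain. Cebpd, a transcription factor of the stress response, and Ackr3, a scavenger receptor for the chemokine CXCL12, were chosen after their values were seen. Cebpd was at 22.0 to 151 CPM in TEBs (median 32.8) and 57.9 to 952 CPM in ducts (median 293) and fell by 2.22 (adjusted p = 1.04e-07), and Ackr3 fell by 2.82 (adjusted p = 2.19e-06).

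The lower members with the largest fitted change had low levels in many TEB libraries. Glycam1, a mucin-like milk protein, was at 0 to 0.309 CPM in TEBs (median 0) and 0.972 to 145 CPM in ducts (median 5.81). No TEB library reached the lowest duct library (adjusted p = 3.43e-07). Lgr5, a receptor for R-spondins and a Wnt target, was at 0 to 7.14 CPM in TEBs (median 0.214) and 0 to 230 CPM in ducts (median 17.8), with an adjusted p of 5.06e-06. Basal ducts held 64.3, 119, 221 and 230 CPM of Lgr5 and basal TEBs 0.274, 1.24, 4.43 and 7.14 CPM. In GFP-negative ducts, Lgr5 was at 0 CPM in replicate 1 and at 18.7 CPM in replicate 2, the library with keratinocyte transcripts, and both TEB libraries were at 0. The place of Lgr5 among genes lower in all 6 rests on that duct library. In luminal ducts Lgr5 was at 6.51% of its basal level. Krt14, a basal keratin, was at 1115 CPM in that GFP-negative duct library and at 1.83 to 26.7 CPM in the other 7 luminal duct libraries, against a mean of 3274 CPM in basal ducts. Transfer of basal RNA to the luminal gates as a part of the luminal Lgr5 signal was not tested. Grik3, a kainate receptor subunit, averaged 290 ± 48.9 CPM in basal ducts and 3.50 ± 3.86 CPM in basal TEBs (SD, n = 4). In GFP-positive cells it was at 41.1 and 38.5 CPM in TEBs and at 45.4 and 50.7 CPM in ducts. Its call was lost within the Elf5 model alone (adjusted p = 0.135).

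Most milk and secretory genes were lower in TEBs. Of 18 milk protein and milk fat globule genes, 14 were called lower, none higher, and 8 were lower in all 6 populations (median log2 fold change -2.29). Trf, the iron carrier transferrin, was at 5.36 to 3898 CPM in TEBs (median 34.3) and 106 to 45236 CPM in ducts (median 323). Its highest values in both tissues were those of GFP-positive cells. Trf was 10.7-fold lower (-3.42 ± 0.30, adjusted p = 7.74e-08), and its change differed in size among populations (adjusted p = 0.0241). Muc1, a membrane mucin (-1.92 ± 0.17), and Xdh, an enzyme of the milk fat globule (-1.88 ± 0.25), were lower too. Lalba, the lactose synthase regulator, was at 0.0197 to 105 CPM in TEBs and 0.247 to 2634 CPM in ducts (-4.47 ± 0.40, adjusted p = 1.04e-07). The casein genes Csn3 and Csn1s1 were not called and were higher in 2 and 3 of 6 populations. Csn3 averaged 24.1 ± 18.6 CPM in basal ducts and 553 ± 352 CPM in basal TEBs (SD, n = 4). In luminal cells it averaged 2579 ± 3528 CPM in ducts and 780 ± 849 CPM in TEBs (SD, n = 8).

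In basal ducts the luminal genes named here were low. Basal ducts held 2.69% of the luminal level of Trf, 2.81% of Muc1 and 0.497% of Lalba, beside 5.56% of the luminal keratin gene Krt18 and 0.857% of the luminal progenitor gene Kit. In TEBs the basal level was 13.4% of the luminal level for Kit and 70.8% for Csn3. For Trf, Muc1 and Lalba it was 2.22%, 1.87% and 0.8% in TEBs. The part of RNA from luminal cells in the basal values was not tested. In ducts, the vacuolar proton pump subunit Atp6v1b1 (-3.08 ± 0.32, adjusted p = 5.2e-07) had a basal level of 3.08%, and the mucus-like protein gene Fcgbp (-4.10 ± 0.47, adjusted p = 1.46e-06) of 0.341%.

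Genes of secreted mucosal defence proteins were lower in TEBs. Of 17 genes, 9 were called lower and 7 were lower in all 6 populations (median log2 fold change -1.47). Lcn2, a siderophore-binding lipocalin, was well expressed in both compartments, with 581 ± 152 CPM in basal ducts (n = 4) and 1419 ± 1454 in luminal ducts (SD, n = 8). It was at 6.23 to 1216 CPM in TEBs (median 235) and 26.1 to 3402 CPM in ducts (median 580) and fell by 1.70 ± 0.22 (adjusted p = 7.34e-06). Chil1, a chitinase-like protein (-3.39 ± 0.34), Cp, the ferroxidase ceruloplasmin (-2.48 ± 0.32), and Ltf, the iron-binding lactoferrin (-3.19 ± 0.45), were also lower in all 6.

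Of all genes tested, 12.4% were higher and 10.0% lower in all 6 populations, which is the background for the lists of cell identity. Of 17 genes of basal identity 1 was lower in all 6 populations, namely Lgr5, and of 14 luminal keratin and identity genes 2 were. The direction of Lgr5 in GFP-negative cells rests on the duct library with keratinocyte transcripts. Among 16 luminal progenitor genes, 7 were called lower and 4 (25.0%) were lower in all 6. Elf5, which drives the GFP reporter of one model, was at 1.02 to 758 CPM in TEBs (median 24.9) and 1.48 to 1657 CPM in ducts (median 73.0). It was 2.09-fold lower (-1.06 ± 0.16, adjusted p = 4.05e-05), and both TEB libraries were below both duct libraries in each population. Its basal level in ducts was 2.35% of the luminal level. Tspan8, a tetraspanin of luminal progenitors, was lower by 2.49 ± 0.40 with a larger fall in basal cells (adjusted p of the difference 0.00108). Of 15 hormone-sensing genes, 1 was higher and 2 were lower in all 6. The higher gene was Areg, whose direction in GFP-negative cells rests on the duct library with keratinocyte transcripts. Pgr, whose promoter drives the Cre of the other model, was not called (log2 fold change -0.23 ± 0.19, adjusted p = 0.364) and was higher in 1 of 6 populations, the YFP-negative cells. Gata3, a luminal transcription factor, was at 37.7 to 226 CPM in TEBs and 99.2 to 306 CPM in ducts and fell by 0.99 ± 0.11 (adjusted p = 5.87e-07).

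Contractile genes were lower in TEBs, with the larger medians in basal cells. Of 15 genes, 9 were called lower and 4 were lower in all 6 populations, with a median log2 ratio of -2.62 and -1.68 in basal cells of the Elf5 and PR-cre models and 0.36 in YFP-negative cells. Oxtr, the oxytocin receptor through which basal cells contract, averaged 1581 ± 201 CPM in basal ducts and 213 ± 127 CPM in basal TEBs (SD, n = 4) and was 6.41-fold lower over all populations (-2.68 ± 0.39, adjusted p = 2.21e-05). Lmod1, an actin nucleator of smooth muscle, and Cnn1, calponin, were lower by 2.18 and 1.83. In luminal ducts these genes were at 2.64% (Oxtr), 2.12% (Lmod1) and 0.0965% (Cnn1) of their basal level, beside 0.106% for Acta2.

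**Figure D4:**
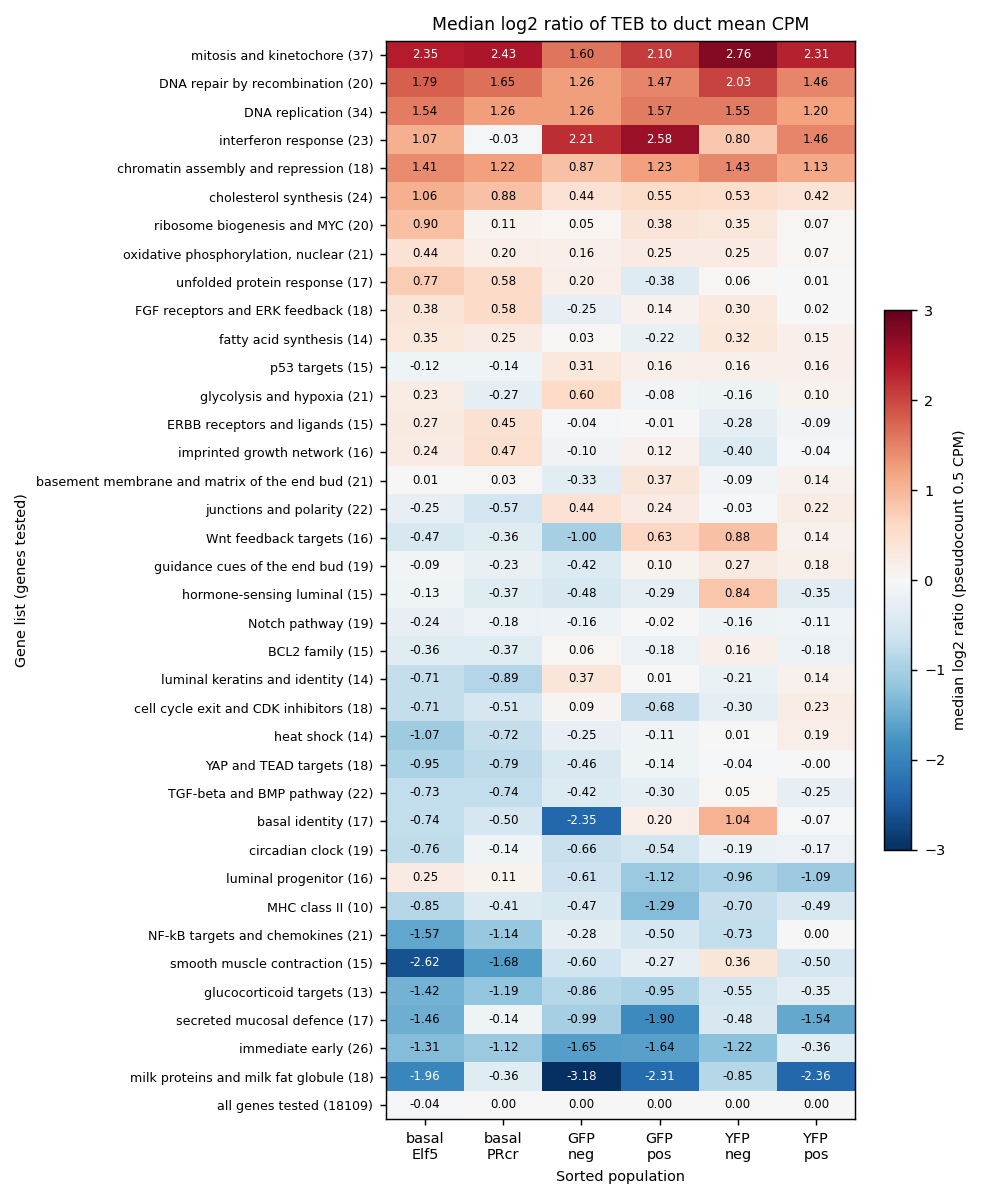
Each cell gives the median log2 ratio of TEB to duct mean CPM of a gene list (rows, with the number of genes tested) in a sorted population (columns), from blue (lower in TEBs) to red (higher). The mitotic list lies between 1.60 and 2.76 in all 6 populations, whereas the interferon list runs from -0.03 to 2.58 and the contractile list from -2.62 to 0.36.

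Immediate early genes, which are switched on within minutes by growth factors, stress or tissue handling, were lower in TEBs. Of 26 genes tested, 22 were called lower, none higher, and 17 were lower in all 6 populations (median log2 fold change -1.22). Klf4 (Entrez gene 16600, chromosome 4, 55527137 to 55532475), a zinc finger factor, was at 206 to 397 CPM in TEBs (median 288) and 668 to 1214 CPM in ducts (median 884). The tissues did not overlap, and Klf4 was 3.06-fold lower (-1.61 ± 0.08, adjusted p = 5.96e-11). Fos, an AP-1 subunit, was at 440 to 2475 CPM in TEBs (median 1528) and 2820 to 11599 CPM in ducts (median 7384), also without overlap. Fos was 5.33-fold lower (-2.41 ± 0.24, adjusted p = 3.07e-07), and its relative Fosb was lower by 2.20 ± 0.19 and Klf2 by 1.69 ± 0.16.

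These genes did not fall evenly. The size of the change differed among populations for 17 of the 26, including Klf4 (adjusted p = 0.00346) and Fos (adjusted p = 0.000316). The median log2 ratio of the list was -1.65 and -1.64 in GFP-negative and GFP-positive cells and -0.36 in YFP-positive cells. For Fos it ran from 0.89 in size in YFP-positive cells to 3.45 in basal cells of the Elf5 model. The summed level of the list was 8520 to 16800 CPM in TEB and 17700 to 66300 CPM in duct libraries, which did not overlap. Time and temperature of dissociation are not given in the labels for either tissue, and their part in this difference was not tested.

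Genes of stress and hormone responses moved in both directions. Of 21 NF-kB targets and chemokines, 14 were called lower and 1 higher, and 5 were lower in all 6. Birc3, an inhibitor of apoptosis, and Nfkbia, the feedback inhibitor of NF-kB, fell by 1.21 and 1.13. The gene that was higher in all 6 was Cxcl10, an interferon-inducible chemokine (1.67 ± 0.28, adjusted p = 8.55e-05), at 2.35 to 36.3 CPM in TEBs and 0.489 to 5.24 CPM in ducts. Of 13 glucocorticoid targets, 8 were called lower and 6 were lower in all 6, among them the factors Zbtb16 (-3.01 ± 0.48) and Klf9 (-1.19 ± 0.14) and the phosphatase Dusp1 (-1.79 ± 0.20). Dusp1 was at 73.9 to 237 CPM in TEBs and 120 to 710 CPM in ducts, and it also belongs to the immediate early response. Of 19 clock genes, 8 were called lower, none higher, and 4 were lower in all 6, led by Rora (-1.74 ± 0.27), with Nfil3 (-1.33 ± 0.33, adjusted p = 0.00302) losing its call within the Elf5 model alone (adjusted p = 0.0709). Heat shock genes divided, with Hspa1a lower by 1.46 ± 0.28 and the mitochondrial chaperone Hspd1 higher by 0.62 ± 0.08. Hspa1a has a near-identical copy, Hspa1b, so its level is uncertain. Of 17 genes of the unfolded protein response, 6 were called higher and 5 lower (median log2 fold change 0.18). None was higher and 4 were lower in all 6, led by the chaperone Dnajb9 (-1.19 ± 0.15).

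MHC class II genes, which present antigen mainly on immune cells, were lower at low levels. Of 10 genes, 7 were called lower and 5 were lower in all 6 populations (median log2 fold change -1.87). Cd74, the invariant chain, was at 0.374 to 3.18 CPM in TEBs (median 1.17) and 0.728 to 22.7 CPM in ducts (median 4.88) and was lower by 2.36 ± 0.33 (adjusted p = 1.27e-05). The summed level of the list was 5.44 to 33.5 CPM in TEBs and 20.9 to 44.7 CPM in ducts. Of the 18 immune cell markers tested, 4 were lower in all 6. Ptprc, the leukocyte antigen CD45, averaged 0.0855 ± 0.109 CPM in basal TEBs and 2.90 ± 3.12 CPM in basal ducts (SD, n = 4). The part of immune cells in the class II values was not tested.

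**Figure D5:**
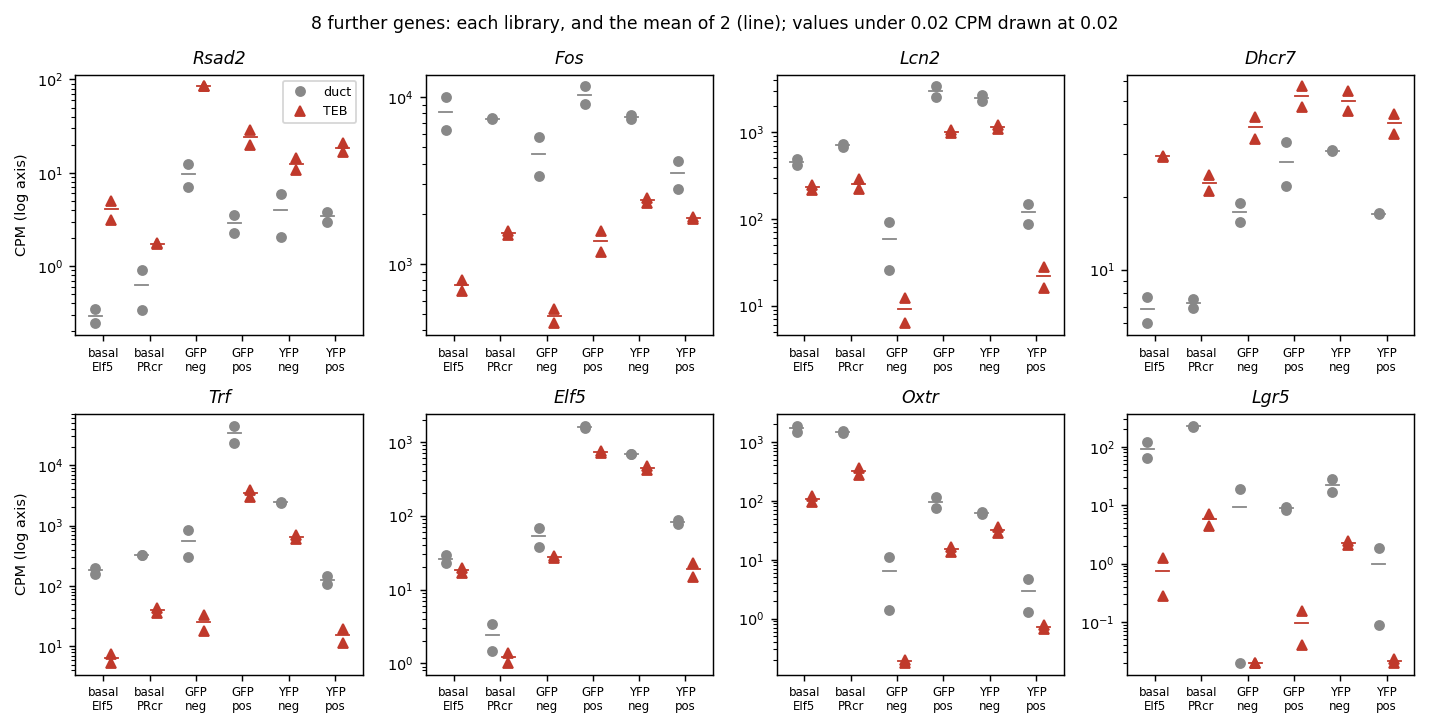
Each panel plots the CPM of 1 gene on a log axis in the 6 populations (horizontal axis), with grey circles for duct libraries, red triangles for TEB libraries and lines at the mean of 2 libraries; values under 0.02 CPM are drawn at 0.02. Rsad2 and Dhcr7 were higher and the other 6 genes lower in TEBs in every population, with levels of Trf, Oxtr and Elf5 that differed widely among populations. For Lgr5 in GFP-negative cells the direction rests on the duct library with keratinocyte transcripts.

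In the FGF and ERK list, 4 of 18 genes were higher (22.2%) and 1 was lower (5.56%) in all 6 populations, against 12.4% and 10.0% of all genes tested. The ETS factors Etv4 and Etv5, which respond to FGF and ERK signals, rose by 1.58 ± 0.24 and 1.06 ± 0.15 (adjusted p = 4.01e-05 and 1.62e-05), and Phlda1 by 0.88 ± 0.13. Etv4 was at 7.38 to 363 CPM in TEBs and 1.96 to 72.1 CPM in ducts. Fgfr1, a receptor, fell by 1.06 ± 0.18, from 0.24 in basal cells of the PR-cre model to 2.25 in GFP-positive cells. Of 15 ERBB genes, 3 were higher (20.0%) and 1 lower (6.67%) in all 6, within 2 genes of the shares of all genes tested. Areg, the EGF receptor ligand required for ductal growth, was at 5.97 to 2601 CPM in TEBs (median 119) and 1.62 to 2239 CPM in ducts (median 38.1). It rose by 1.23 ± 0.31 (adjusted p = 0.00378), with its call lost within the PR-cre model alone (adjusted p = 0.0715), and its basal level in ducts was 0.443% of the luminal level. In GFP-negative cells Areg was at 2239 and 577 CPM in ducts and at 1975 and 2109 CPM in TEBs. The 577 CPM is from the library with keratinocyte transcripts, and the place of Areg among genes higher in all 6 rests on it. Tgfa, another ligand, was at 20.0 to 108 CPM in TEBs and 4.89 to 43.7 CPM in ducts and rose by 1.22 ± 0.17 (adjusted p = 1.64e-05). Their receptor Egfr fell by 1.64 ± 0.44 (adjusted p = 0.00537, and 0.0809 within the Elf5 model alone). In GFP-negative cells Egfr was at 1.29 and 50.9 CPM in ducts and at 1.51 and 1.22 CPM in TEBs. The 50.9 CPM is from the library with keratinocyte transcripts, and the place of Egfr among genes lower in all 6 rests on it.

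In the other pathway lists the shares lower in all 6 were 18.8% for Wnt, 21.1% for Notch, 18.2% for TGF-beta and BMP and 16.7% for YAP, against 10.0% of all genes tested. With lists of this size these shares differ from the background by few genes. Of 16 Wnt feedback genes, 2 were higher and 3 lower in all 6, with the factor Tcf7 higher by 1.56 ± 0.25 and the secreted modulator Sfrp2 lower by 1.77 ± 0.40 (adjusted p = 0.00159, and 0.0696 within the PR-cre model alone). Of 19 Notch genes 4 were lower in all 6, led by the target Hey2 (-2.41 ± 0.49), and 1 was higher. In GFP-negative cells Hey2 was at 0 CPM except for 0.897 CPM in the duct library with keratinocyte transcripts, so its direction there rests on that library. Of 22 TGF-beta and BMP genes 4 were lower and none higher in all 6, with the ligand Tgfb3 at 24 to 242 CPM in TEBs and 55.4 to 917 CPM in ducts (-1.33 ± 0.15, adjusted p = 1.45e-06). Of 18 YAP and TEAD targets 3 were lower and none higher, led by Crim1 (-1.14 ± 0.09). In the imprinted growth network, H19 was higher and Plagl1, a zinc finger factor, lower (-2.04 ± 0.21), with 16 genes tested. Among 21 glycolysis and hypoxia genes 2 moved each way in all 6, with the enolase gene Eno1 higher by 0.71 ± 0.13.

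Genes of guidance, matrix and junctions, which are studied for their part in TEB outgrowth, had shares near or below those of all genes tested (12.4% higher and 10.0% lower). Of 19 guidance genes 1 was higher in all 6, of 21 matrix genes 2 were higher and 1 was lower, and of 22 junction genes 3 were higher. Fn1, fibronectin, was at 2.22 to 633 CPM in TEBs (median 16.9) and 1.01 to 133 CPM in ducts (median 3.98) and rose by 2.03 ± 0.31 (adjusted p = 3.81e-05). In YFP-positive cells Fn1 libraries overlapped, with 2.22 and 3.07 CPM in TEBs and 1.10 and 3.60 CPM in ducts. Of 14 fibroblast markers 6 were called higher, and their part in the Fn1 values was not tested. Lama3, a laminin chain of the basement membrane, fell by 1.98 ± 0.40, and Dsc2, a desmosomal cadherin, rose by 1.03 ± 0.14. In GFP-negative cells Lama3 was at 1.74 and 64.4 CPM in ducts and at 3.43 and 4.96 CPM in TEBs. The 64.4 CPM is from the library with keratinocyte transcripts, and the place of Lama3 among genes lower in all 6 rests on it. The difference of the TEB change between the 2 basal and the 4 luminal populations was called for 26.3% of all genes tested and for 941 of the 4058 members.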

How the data were processed

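RNA was sequenced in 24 libraries of sorted mammary epithelial cells (TruSeq v2 chemistry, without strand information, so overlapping antisense genes cannot be told apart). The authors deposited whole-number counts per gene for 27179 Entrez identifiers; per the submitters' processing notes, featureCounts and mm10 were used, and no aligner, annotation or strand setting is named there. Symbols came from a RefSeq table (25275) and GENCODE (18); 1886 identifiers, with 1.22% of counts, had none.

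The analysis used edgeR 4.0.16 under R 4.3.3, with filterByExpr over 12 groups (at its minimum count of 10 and total of 15), TMM scaling and a robust quasi-likelihood fit with population and tissue as additive terms (17 residual degrees of freedom). All adjusted p-values of TEBs against ducts come from this test with Benjamini-Hochberg adjustment over 18109 genes; differences among populations, and of basal against luminal, come from a model of 12 group means (12 residual degrees of freedom). On simulated data with 200 changed genes among 17699, 86% of 2-fold and 97% of 4-fold changes were recovered, with 9 unchanged genes called. The SE is the fitted log2 change divided by the root of F. CPM ± SD is over libraries, and intervals of counting error are not given. Named genes are the 12 higher and 12 lower members (symbol, mean of at least 5 CPM) with the largest smallest-population change, the 5 and 5 with the largest fitted change, up to 4 members per list, list members whose direction differs between populations, the genes of gates and reporters, and those said to be chosen later or for their promoter. The members and the 45 lists were chosen with earlier results of these data known. Alternatives were DESeq2 1.42.0, limma 3.58.1 on means per preparation, other scalings and filters, each model alone, the replicate block and leaving out each library.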

Additional observations from a re-analysis of the deposited data

Results flagged for a closer look

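Several named genes were singled out because their TEB change differed between the 2 basal and the 4 luminal populations (edgeR's quasi-likelihood test of that difference, adjusted p under 0.05). Values below are the basal minus the luminal log2 change, so that a negative value means a smaller rise or a larger fall in basal cells. Since 26.3% of all genes tested passed this test, a pass by itself sets no gene apart.

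Among genes that were higher in TEBs, the rise was larger in basal cells for Pcsk6 (1.33), Etv4 (1.32), Mad2l1 (1.00), Dhcr7 (0.88), Etv5 (0.82), Idi1 (0.64) and Dkc1 (0.48). It was smaller in basal cells for H19 (-5.10), Cxcl10 (-1.90), Dsc2 (-1.03) and Pcna (-0.81). The H19 value rests in part on GFP-positive ducts at 0 CPM and on YFP-negative ducts at 0 and 0.108 CPM, where the fitted change depends on the prior count. The Mad2l1 value includes the GFP-negative duct library with keratinocyte transcripts, at 59.7 CPM against 24.5 CPM in replicate 1.

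Among genes that were lower in TEBs, the fall was larger in basal cells for Grik3 (-4.96), Tspan8 (-3.05), Nfil3 (-2.69), Cp (-2.12), Clca3a2 (-2.01), Cnn1 (-1.23), Plagl1 (-1.11), Dusp1 (-1.01), Dnajb9 (-0.79), Fosb (-0.77), Klf2 (-0.76), Tob1 (-0.76), Fos (-0.69) and Klf4 (-0.29). It was smaller in basal cells for Ptprz1 (2.29), Rb1 (1.17) and Fgfr1 (0.95). The Ptprz1 value rests in part on GFP-negative TEBs at 0 CPM and YFP-positive TEBs at 0.066 and 0 CPM, and its log2 ratios of means with a pseudocount of 0.5 were -3.22 and -2.61 in basal cells and -3.02, -3.38, -1.76 and -2.15 in luminal cells, which do not show a smaller basal fall.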

How the results depend on the processing

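With plain library sizes, 2174 genes were called lower and the set held 3420 higher and 1017 lower genes, all 2239 higher members among the former. For the test of TEB against duct over the 6 sorted populations, the fit within the Elf5 model alone called 2275 genes higher and 2168 lower (4443 in all), and that within the PR-cre model 2042 and 1941 (3983), with 12 libraries each. The stricter reading with both TEB libraries on one side in every population left 1002 and 568 genes (1570), and a level of at least 5 CPM in every population, added after the data were seen, left 1176 lower members. The deviations of same-numbered TEB and duct libraries correlated at 0.04 to 0.10. Gates that may share a preparation correlated at 0.01 to 0.15, so this check cannot decide whether replicate numbers pair the libraries. With the replicate block, 2197 higher and 1737 lower genes were in the set. DESeq2 retained 2177 higher and 1815 lower members. Leaving out 1 library at a time (24 fits) retained between 1982 and 2182 higher and between 1481 and 1761 lower members. Of 4572 values of named genes over 36 alternatives, 4562 kept their direction and their side of the threshold, 8 lost the call, all within a single model, 2 gained one and 0 reversed. Depth limits genes near 0.057 to 0.096 CPM (3 counts).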
